A study of Mus musculus with 6 samples.

Results

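Processed pseudogenes are copies of messenger RNAs that were reverse transcribed and inserted elsewhere in the genome, so they carry the joined exons of a parent gene but not its introns or, in general, its promoter. Genes that are strongly transcribed in the germ line, above all those of ribosomal proteins and of translation factors, have left many such copies, and a short read from a copy can be hard to tell from a read of its parent. The copies described here were chosen by annotation and level. They are the genes with the Ensembl biotype processed pseudogene whose signal, that is reads divided by the size factor of the library, had a mean of at least 20 over the 6 libraries. Copies on chromosomes X and Y, and those in a short interval of chromosome 10 around Sirt6, were left out, which set aside 12 further copies above the minimum, on X or Y. The rule gave 141 pseudogenes among the 25166 genes of the table, which lists 2931 processed pseudogenes in all. The level over all libraries chose them and is a description. The genotypes played no part in the choice.

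The libraries were made from muscle stem cells (MuSCs), the Pax7-positive cells that lie along muscle fibers and regenerate them, freshly sorted by FACS from 3 Sirt6mKO and 3 control mice of the strain C57BL/6, which the study describes as 12-week-old males. In Sirt6mKO mice a Cre recombinase driven from Pax7 (Pax7-ICNCre) deletes floxed exons 4 to 6 of both Sirt6 alleles (Sirt6 fl/fl), so the deletion is limited to cells that have expressed Pax7. The controls are labelled wild type, and the study describes them as Sirt6 fl/fl animals without the Cre. Total RNA came from 100 to 200 sorted cells a library and was sequenced in single reads of 75 bases after removal of ribosomal RNA. Nothing tells apart the spread between animals from that between sorts and libraries, so the p-values measure the spread between these libraries.

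The libraries held between 1267947 reads on genes (control replicate 3) and 3211528 (control replicate 2), so that 1 read was worth between 0.729 and 1.792 units of signal. Sirt6 itself stood at 19, 20 and 13 in Sirt6mKO replicates 1, 2 and 3, beside 18, 17 and 20 in the control libraries (log2 fold change −0.10 ± 0.29 SE, limma adjusted p = 0.91). A total over the gene does not separate the deleted exons from the others, so it did not check the genotype labels. All 8 MuSC markers looked up had a row, and their summed signal was 10751 to 11145 in Sirt6mKO and 12510 to 13241 in the controls. Past the adjusted p were 2 of them, among them Pax7, at 1841, 2307 and 1810 against 4066, 3449 and 3150 (log2 fold change −0.84, adjusted p = 0.0041). Myofiber markers summed to 678 to 1932 and 577 to 657, and fibroblast markers to 7720 to 9323 and 5916 to 9179, with 1 of 7 and 2 of 6 past the adjusted p. The 4 endothelial markers summed to 24 to 38 and 11 to 38. Of the 4 immune markers Cd68 was at 34 to 70 and 35 to 61, and the other 3 had no row and were not analysed here. Their part in the results below was not tested.

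Most of the expressed pseudogenes were present at low levels. The median of their mean signals was 32.8, the highest was 349.2, and 104 of the 141 (73.8%) lay under 50, while 8 reached 100. Just inside the minimum stood Gm17228, Ndufa12-ps, Gm15937 and Gm10123, all exactly at 20, and just outside it Gm14048 at 19.67 and Gm6627 and Gm9385 at 19.5. They lay on all 19 autosomes. Of the 141, 140 had a transcript in GENCODE vM21 (genome build GRCm38), with a median length of 745 bases and a range of 213 to 6092. Gm19334 had none and is described by its signal only.

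Sequence gave the closest coding gene for most of the copies. A blastn search found a coding transcript for 139 of the 140 sequences, with a median identity of 98.39%, and the match spanned at least 80% of the pseudogene and had a row in the table for 129 of the 141, which pointed to 114 different coding genes. By the class of the matched gene, 29 pseudogenes were copies of cytosolic ribosomal proteins, 9 of translation factors, 9 of nucleolar and chromatin proteins such as prothymosin (Ptma) and the HMG-box protein Hmgb1, 4 of RNA-binding proteins and 4 of chaperones. Glycolysis, the cytoskeleton and mitochondrial carriers with the respiratory chain gave 1 each. The matched gene was in none of these lists for 71. The open reading frame of the parent ran over at least 99% of its length, from a start codon and with no gap or premature stop, in 42 copies, and 48 copies held at least 1 in-frame stop.

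Whether a read of 75 bases can belong to a pseudogene alone depends on the bases at which it differs from every other transcript. Of the 121901 windows of 75 bases in the 140 sequences, 58.7% occurred in no other GENCODE transcript. For 19 pseudogenes all windows were their own, and for 12 none was. The stretches below belong to copies on which the later results turn. Each is set beside the same stretch of the coding sequence of its parent, with capitals at the bases that differ. For Rpsa-ps10, Rps3a3, Gm8730 and Gm9493 the 75 bases with the most differences from the parent were picked. These stretches therefore overstate how often the copies differ. Rpsa-ps10 is a copy of Rpsa, the gene of a small-subunit ribosomal protein that also serves as a laminin receptor. Its shown stretch is chr3:150073324-150073398 on the minus strand of GRCm38.
Rpsa-ps10: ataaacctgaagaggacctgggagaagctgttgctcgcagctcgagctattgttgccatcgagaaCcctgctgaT
Rpsa: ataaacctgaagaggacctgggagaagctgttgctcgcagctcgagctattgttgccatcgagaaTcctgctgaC
Rps3a3 (chr13:108670788-108670862, plus strand) is a copy of Rps3a1, another protein of the small subunit.
Rps3a3: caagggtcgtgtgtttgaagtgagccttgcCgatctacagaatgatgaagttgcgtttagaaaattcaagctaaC
Rps3a1: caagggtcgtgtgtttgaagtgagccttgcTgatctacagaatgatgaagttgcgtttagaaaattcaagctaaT
Gm8730 (chr8:102865352-102865426, minus strand) and Gm9625 (chr13:67810618-67810692, plus strand) are both copies of Rplp0, the scaffold of the ribosomal stalk. In the shown stretch they share 2 of the bases that set them apart from Rplp0.
Gm8730: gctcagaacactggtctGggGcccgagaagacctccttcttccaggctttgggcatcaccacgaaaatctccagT
Gm9625: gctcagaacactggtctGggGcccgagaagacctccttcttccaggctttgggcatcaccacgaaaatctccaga
Rplp0: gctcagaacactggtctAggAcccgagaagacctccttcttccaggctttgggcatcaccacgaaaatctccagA
Gm9493 (chr19:23620036-23620110, plus strand) is a copy of Rps7, also of the small subunit.
Gm9493: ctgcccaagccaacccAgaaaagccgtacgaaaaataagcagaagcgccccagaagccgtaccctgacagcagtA
Rps7: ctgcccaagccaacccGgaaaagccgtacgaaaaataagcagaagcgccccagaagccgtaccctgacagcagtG

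Rpsa-ps10 differed from Rpsa at 6 of 885 bases, Rps3a3 from Rps3a1 at 9 of 795, Gm8730 from Rplp0 at 12 of 954, and Gm9493 from Rps7 at 3 of 570 aligned bases. So few differences left 201 of the 811 windows of Rpsa-ps10 as its own, 394 of 721 for Rps3a3, 405 of 880 for Gm8730 and 159 of 497 for Gm9493. Older copies had drifted further. Gm3496 (shown at chr1:44924580-44924654, minus strand) was 78.78% identical to its parent Set, a histone chaperone and phosphatase inhibitor, and Gm47994 (shown at chr13:38514662-38514711, plus strand) matched the RNA- and DNA-binding protein gene Ybx1 over 40.1% of its length at 72.56% identity. The most alike stretches without a gap are shown, with differences in capitals, because these 2 copies were the ones past the test described below.
Gm3496: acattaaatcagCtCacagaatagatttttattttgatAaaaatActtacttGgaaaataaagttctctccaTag
Set: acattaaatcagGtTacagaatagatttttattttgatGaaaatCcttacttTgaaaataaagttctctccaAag
Gm47994: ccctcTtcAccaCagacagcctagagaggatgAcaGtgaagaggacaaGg
Ybx1: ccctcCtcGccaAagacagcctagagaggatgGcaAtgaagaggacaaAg
All 671 windows of Gm3496 and all 706 of Gm47994 were their own.

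At the other end, Tpt1-ps3 did not differ at any of its 519 bases from Tpt1, the gene of the translationally controlled tumor protein. All its 445 windows occurred in Tpt1, 118 of them only across a junction of exons, and yet it carried a mean signal of 171.0. In the stretch at chr6:99878004-99878078 (minus strand) the capitals mark the base on either side of a junction in Tpt1.
Tpt1-ps3: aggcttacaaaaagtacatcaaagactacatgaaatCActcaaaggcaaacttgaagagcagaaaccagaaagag
Tpt1: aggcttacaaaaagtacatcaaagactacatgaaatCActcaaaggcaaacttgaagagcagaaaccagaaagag
The 12 pseudogenes without a window of their own, among them Gm10698 (a copy of Tmed2), Gm13835 (Psma3), Rps6-ps4, Ptges3-ps and Rpl38-ps2, had a median signal of 37.2. The 54 with at least 75% of windows of their own had a median of 29.8. The study describes reads that align to several places as excluded from the counts. The genome itself was not searched, so which reads gave these 12 their signal was not tested.

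**Figure D1:**
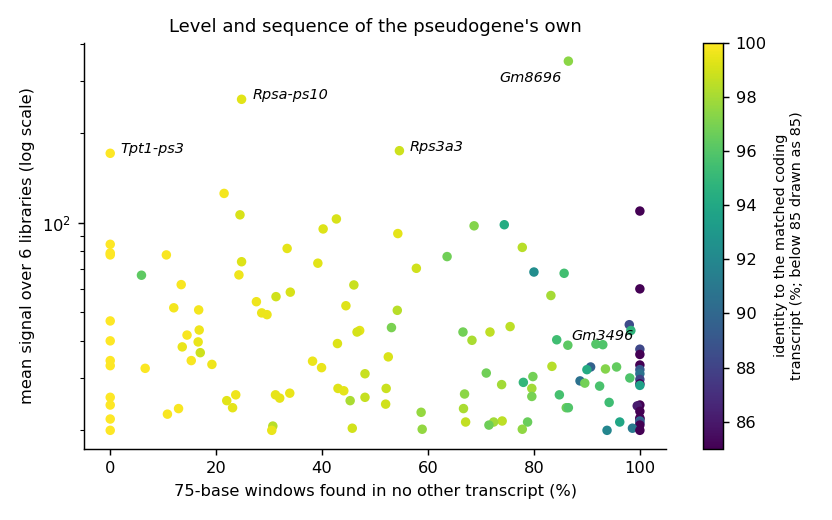
Mean signal over the 6 libraries (log scale) of 139 expressed processed pseudogenes against the percentage of their 75-base windows found in no other GENCODE transcript, colored by identity to the matched coding transcript in percent. Tpt1-ps3, at 0% own windows, and Rpsa-ps10, at 24.8%, stand among the highest, and copies below 85% identity, drawn in the darkest color, sit at the right edge. Gm19334 and Vamp7-ps, with no sequence or no match, are not drawn.

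The most abundant copies came from varied parents. Gm8696, a copy of Snu13, a protein of spliceosomal and nucleolar ribonucleoproteins, was highest, reaching 318, 347 and 276 in Sirt6mKO against 461, 311 and 382 in control libraries. The groups overlapped, and the log2 fold change was −0.28 ± 0.15 (SE, adjusted p = 0.36). Per 1000 bases of transcript it stood at a signal of 907, and Snu13, its parent, at 28.2. After Rpsa-ps10, Rps3a3 and Tpt1-ps3 followed Gm9794 (a copy of Rpl23, mean 125.33), Gm11653 (Snupn, 109.33), Gm4617 and Gm9800 (both of Ptma, 106.17 and 102.83), Gm11889 (Luc7l2, 98.33) and Gm6493 (Tnpo1, 97.50). None of these 10 passed the test between genotypes. Over the 129 matched pairs, the level per 1000 bases of the pseudogene was a median of 26.6% of that of its coding gene, and it was above the coding gene in 18 pairs. Among these 18 are pairs whose coding gene had a mean under 5, namely Cdh11 (3.17), H2ac19 (3.5) and Gm13212 (0.83). Others had a higher coding mean, such as Snu13 at 58.5. The scale used the length of the best-matching transcript of each coding gene.

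The first question of the design is which pseudogenes differed between Sirt6mKO and control MuSCs. Gm3496 and Gm47994 were higher in Sirt6mKO, and no pseudogene was called lower. In bulk RNA, fewer cells of a type and less RNA per cell cannot be told apart. The test was limma on log2 of the signal plus 1, fitted to the 14227 genes whose mean reached 5, with an adjusted p of at most 0.05 and a change of at least 2-fold. All 141 pseudogenes were in that fit. The 2 calls are 1.42% of them, against 2.59% of all tested genes, 1.57% called higher and 1.02% lower. By the adjusted p alone the same 2 pseudogenes passed, against 4.52% of all tested genes. At an unadjusted p under 0.05 there were 26, or 18.4%, beside 18.1% of all tested genes. On none of these counts did the pseudogenes exceed the background by more than that small margin.

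Gm3496 stood at 51, 46 and 58 in Sirt6mKO against 26, 12 and 23 in the controls (51.7 ± 6.03 and 20.3 ± 7.37, mean ± SD, n = 3 each; log2 fold change 1.37 ± 0.29 SE, adjusted p = 0.018). Every Sirt6mKO library lay above every control. The gene overlaps no other annotated gene. Its parent Set did not follow, with 547, 471 and 463 against 480, 640 and 522 and a log2 fold change of −0.14 (adjusted p = 0.63). The adjusted p of Gm3496 was 0.071 to 0.099 when any 1 of the Sirt6mKO libraries was left out, so the call needed all 3.

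Gm47994 had 29, 31 and 35 in Sirt6mKO against 14, 12 and 18 in the controls (31.7 ± 3.06 and 14.7 ± 3.06, n = 3 each; 1.07 ± 0.27 SE on the log2 scale, adjusted p = 0.042), again without overlap. Its control mean of 14.7 lay under the minimum for the set, so it entered the set through Sirt6mKO. The gene lies within an intron of Txndc5, an endoplasmic reticulum disulfide isomerase, on the other strand. Ybx1 was level between the groups, at 628, 568 and 665 against 585, 652 and 586 (log2 fold change 0.03, adjusted p = 0.93). The call was lost in 5 of the 6 fits that left out 1 library, with adjusted p of 0.076 to 0.15 in those 5. The exception was the fit without control replicate 3. The call was also lost without the filter on low values (adjusted p = 0.072). With a pseudocount of 5 Gm47994 still passed the adjusted p but changed by less than 2-fold, so it was not called.

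**Figure D2:**
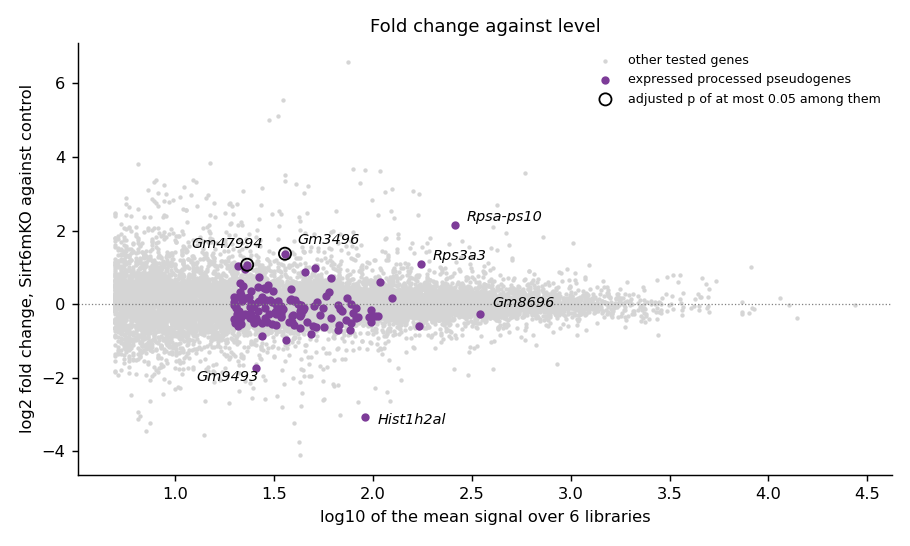
Log2 fold change of Sirt6mKO against control against log10 of the mean signal for all 14227 tested genes, with the 141 expressed processed pseudogenes in purple and circles around the 2 with an adjusted p of at most 0.05. Most of the purple points lie within 2-fold, and Rpsa-ps10 at 2.15 and Hist1h2al at −3.06 are the extremes among them.

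As a set, the pseudogenes lay slightly lower in Sirt6mKO. The median of their log2 fold changes was −0.15, against 0.00 over all tested genes, and 92 of the 141 (65.2%) were below 0, against 49.6% of all tested genes. The ranges of the groups did not overlap in 25 pseudogenes. In 19 (13.5%) Sirt6mKO was lower, beside 10.1% of all tested genes, and in 6 (4.26%) it was higher, beside 11.1%. The shift depended on 2 libraries. The median was −0.04 without Sirt6mKO replicate 2 and −0.06 without control replicate 3, and without both it was 0.05, with 64 of 141 below 0, an alternative chosen after the values were seen. The share of all signal that fell on the pseudogenes came to 0.293%, 0.223% and 0.308% in Sirt6mKO against 0.273%, 0.250% and 0.346% in the controls, which overlapped (exact permutation test, two-sided, p = 0.80, smallest possible p 0.1).

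The largest falls without overlap were Hist1h2al, Gm9493, Rps19-ps6, Gm5525 and Gm4895, and none passed the adjusted p. Rps19-ps6, in an intron of Tecpr2, came closest. It stood at 29, 20 and 23 in Sirt6mKO against 37, 45 and 65 in the controls (−0.98 ± 0.26 SE, adjusted p = 0.054). Its parent Rps19, of the small ribosomal subunit, had 574, 450 and 585 against 499, 581 and 728, which overlap, with a log2 fold change of −0.16. Gm5525, a copy of the elongation factor subunit gene Eef1g, had 19, 15 and 22 against 27, 26 and 57 (−0.86 ± 0.32, adjusted p = 0.18). Its Sirt6mKO mean of 18.67 lay under the minimum of 20, so it entered the set through the controls. Gm4895, a copy of the ubiquitin-conjugating enzyme gene Ube2q2, had 32, 29 and 38 against 43, 47 and 68 (−0.64 ± 0.23, adjusted p = 0.16). In each of these 3, control replicate 3 was the highest library and Sirt6mKO replicate 2 the lowest.

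That order of libraries was frequent across the set, though many pseudogenes did not have it. Control replicate 3 was the highest library in 73 of the 141 pseudogenes (51.8%), against 16.4% of the 9931 other genes with a mean of at least 20 that are neither processed pseudogenes nor matched coding genes. Sirt6mKO replicate 2 was the lowest in 58 (41.1%), against 13.3%. Relative to the mean of each gene, the median pseudogene stood 0.31 higher on the log2 scale in control replicate 3 and at −0.32 in Sirt6mKO replicate 2, with the other libraries between −0.09 and −0.02. The matched coding genes were also lowest in Sirt6mKO replicate 2, at −0.14, but stood at 0.06 in control replicate 3 and 0.07 in control replicate 2, which were the highest library in 34.2% and 23.7% of them. Control replicate 3 had the fewest reads, while Sirt6mKO replicate 2 had 3178134, close to the most. The ribosomal protein genes matched by pseudogenes were summed without Rpsa and Fau, which left 23 genes. These 23 took 0.935%, 0.758% and 0.961% of all signal in Sirt6mKO against 0.871%, 0.995% and 1.22% in the controls. The part of depth or of the coding genes in the order was not tested.

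**Figure D3:**
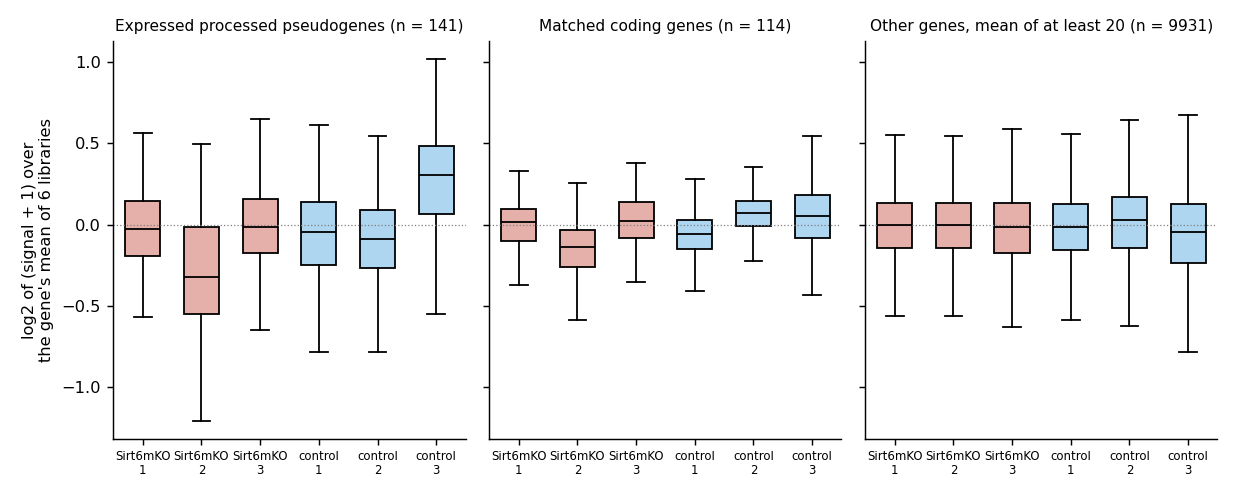
Log2 of the signal plus 1 over the mean of the gene in the 6 libraries, for the 141 expressed processed pseudogenes, their 114 matched coding genes and 9931 other genes. Boxes span the quartiles with the median as a line, whiskers reach 1.5 times the box or the last value within it, and values beyond are not drawn. The pseudogene boxes are lowest in Sirt6mKO replicate 2 (median −0.32) and highest in control replicate 3 (0.31).

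In a few pseudogenes 1 or 2 libraries stood far from the others, in some of them regardless of genotype. Counting those in which the highest library was over 3 times the median, or the lowest under it by the same ratio (both on signal plus 1, a measure chosen after the values were seen), 4 of 141 (2.84%) were high, against 0.398% of 10039 genes with a mean of at least 20 that are not processed pseudogenes. Likewise 4 (2.84%) were low, against 1.48%. They are 7 pseudogenes, since Hist1h2al met both. The 10039 genes were not chosen to match the pseudogenes in level, and the part of level in these shares was not tested.

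Rpsa-ps10 was the clearest. It reached 688 and 690 in Sirt6mKO replicates 1 and 3 but 25 in replicate 2, and 48, 42 and 66 in the controls. The 2 high libraries stood over 10 times above all the others, and Sirt6mKO replicate 2 was the lowest of all 6. The log2 fold change of 2.15 ± 0.91 (SE) therefore had an adjusted p of 0.23, which fell to 2.6e-05 without Sirt6mKO replicate 2. Rpsa itself had 1911, 2080 and 2011 against 2178, 2409 and 3013. Of the signal on the pair, Rpsa-ps10 held 26.5%, 1.19% and 25.5% in Sirt6mKO against 2.16%, 1.71% and 2.14% in the controls. Among the 9 other copies of Rpsa with a row, none with a mean above 8.3, Rpsa-ps7 was high in the same 2 libraries, with 17, 4 and 16 against 5, 4 and 4. Rpsa-ps12 was instead highest in control replicate 3, with 2, 1 and 5 against 4, 3 and 20. The rest had means of at most 4.67.

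Gm8730 and Gm9625, the copies of Rplp0 whose shared bases are printed above, were both high in Sirt6mKO replicate 3. Gm8730 had 19, 28 and 231 in Sirt6mKO against 27, 31 and 34 in the controls, and Gm9625 had 13, 9 and 93 against 10, 9 and 25. Rplp0 was lowest in that library, at 2320, 1949 and 1830 against 2184, 2716 and 2997. Together the copies held 15.0% of the signal on the 3 genes there and 1.36% to 1.93% in the other 5 libraries.

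Rps3a3, which lies in an intron of the phosphodiesterase gene Pde4d on the same strand, showed the reverse. It had 220, 179 and 202 in Sirt6mKO against 182, 17 and 247 in the controls, so that only control replicate 2 was low. Its parent Rps3a1 was highest in exactly that library, at 745, 619 and 707 against 742, 1103 and 817. The pseudogene held 22.8%, 22.4% and 22.2% of the signal on the pair in Sirt6mKO against 19.7%, 1.52% and 23.2% in the controls, and the sum of both genes was 965, 798 and 909 against 924, 1120 and 1064. Pde4d was at 951, 1014 and 1003 against 1193, 1176 and 1291 and did not share the low value. Rps3a2 is another copy of Rps3a1, in which 312 windows of Rps3a3 also occurred. It too was lowest in control replicate 2, with 37, 37 and 41 against 44, 20 and 50. The log2 fold change of Rps3a3 was 1.10 ± 0.69 (adjusted p = 0.45), and −0.09 without control replicate 2.

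Gm9493, the copy of Rps7, had 13, 26 and 3 in Sirt6mKO against 33, 38 and 41 in the controls. The groups did not overlap, with a log2 fold change of −1.73 ± 0.53 (adjusted p = 0.093), but the 3 Sirt6mKO libraries spanned a wider range than the controls, whose values stayed close together. It held 0.386% to 3.09% of the signal on the pair in Sirt6mKO and 3.72% to 3.98% in the controls. Rps7 had 841, 815 and 775 against 851, 917 and 1061.

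Hist1h2al, annotated as a processed pseudogene although it belongs to the histone H2A genes, which have no introns, had 52, 43 and 1 in Sirt6mKO against 207, 175 and 73 in the controls. Every Sirt6mKO library was lower, and the spread within both groups was wide (32.0 ± 27.2 and 151.7 ± 70.0, n = 3 each). The log2 fold change was −3.06 ± 0.93 with an adjusted p of 0.090, and −1.53 with an adjusted p of 0.036 without Sirt6mKO replicate 3. Gm15692, a copy of Hmgb1, was low in control replicate 2 only, with 22, 34 and 43 against 33, 8 and 38.

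**Figure D4:**
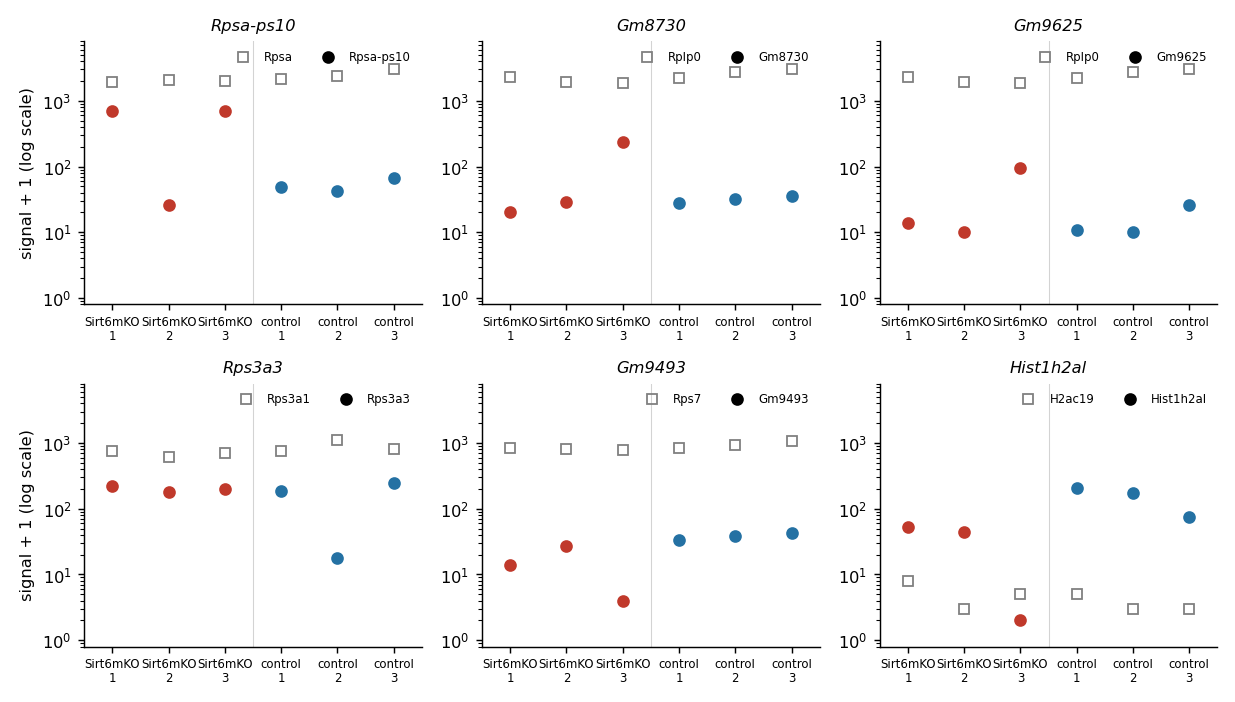
Signal plus 1 (log scale) in each of the 6 libraries for 6 pseudogenes with a library far from the others (filled circles, red for Sirt6mKO and blue for control) and for the matched coding gene (open grey squares). Rpsa-ps10 is high in Sirt6mKO replicates 1 and 3, Gm8730 and Gm9625 in Sirt6mKO replicate 3 only, and Rps3a3 is low in control replicate 2, while Rpsa, Rplp0, Rps3a1 and Rps7 stay within a narrow range.

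The next comparison set each pseudogene beside the parent its symbol names. Of 34 pseudogenes with a symbol of the form parent-ps, with or without a number, 30 had a row for that parent and 2 more, Eif3s6-ps1 and Eif3s6-ps2, had one under the current symbol of the parent, Eif3e, a subunit of an initiation factor. Eif4a-ps4 and Vamp7-ps had none. For 31 of these 32 the best match by sequence was the named gene, the exception being Gstm2-ps1, which was closest to Gstm1. None of the 32 pseudogenes passed the test, and of their 31 parents 1 did, beside 2.59% of all tested genes.

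That parent was Gstm2, a glutathione S-transferase, at 288, 238 and 263 in Sirt6mKO against 129, 87 and 61 in the controls (log2 fold change 1.56 ± 0.22 SE, adjusted p = 0.0017). Gstm1, the closest by sequence, was also higher, at 1186, 1120 and 1074 against 803, 567 and 506 (0.88 ± 0.15, adjusted p = 0.0060). Gstm2-ps1 itself had a log2 fold change of 0.58 ± 0.37 (adjusted p = 0.46). The log2 ratio of Gstm2-ps1 to Gstm2 differed between genotypes by −0.99 (exact permutation test, two-sided, p = 0.20) and that to Gstm1 by −0.30 (p = 0.80), in a design whose smallest possible p is 0.1, so whether the copy changed less than either gene could not be settled.

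The ratio of pseudogene to parent was compared in the same way for all 32 pairs. With 3 libraries against 3 no pair could pass 0.05. The smallest possible p was reached by 4 of the 32 pairs, and by 20 of the 129 pairs found by sequence. That p is 0.1, so a share of about 0.1 of pairs reaches it where the genotypes do not differ. The 4 are therefore given as values only. The log2 ratio was lower in Sirt6mKO by 0.44 for Tpt1-ps3 to Tpt1, by 0.65 for Eif3s6-ps2 to Eif3e and by 0.82 for Rps19-ps6 to Rps19, and it was 0.59 higher for Glo1-ps to Glo1, the glyoxalase gene. Pseudogene and parent had the same sign of fold change in 17 of the 32 pairs, and the same library was highest in 10 and lowest in 8. Per 1000 bases the pseudogene stood at a median of 24.2% of the parent, from 5.30% for Rpl10a-ps1 to 164% for Mrpl48-ps. Tcea1-ps1, a copy of the transcription elongation factor gene Tcea1, and Ndufa12-ps, of a complex I subunit, were also above their parents on that scale, at 139% and 102%.

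The same held over all pairs found by sequence. Of the 114 coding genes only Gstm1 passed the adjusted p, beside 4.52% of all tested genes. None passed with a 2-fold change, beside 2.59%. The median log2 fold change was −0.08 for the coding genes and −0.17 for their 129 pseudogenes, and the signs were the same in 70 of the 126 pairs whose coding gene was tested. By class, 18 of the 29 copies of ribosomal protein genes were below 0 (median −0.19), and so were 18 of their 25 coding genes (median −0.17), with none of either past the adjusted p. Copies of translation factors were below 0 in 8 of 9 (median −0.57), while their 6 coding genes were below 0 in 3 (median −0.06). Of the 9 nucleolar and chromatin copies 7 were below 0 (median −0.27), the copy past the test being Gm3496. All 4 copies of RNA-binding protein genes and 3 of 4 of chaperone genes were below 0, and none passed.

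**Figure D5:**
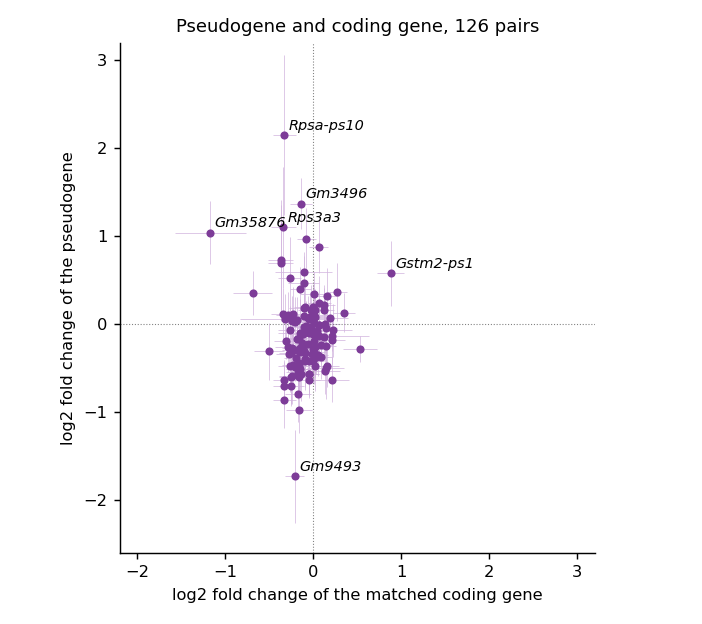
Log2 fold change of the pseudogene against that of its matched coding gene, Sirt6mKO against control, for 126 pairs, with bars of 1 SE. Most coding genes stay near 0. The furthest out are Gstm1 at 0.88 beside Gstm2-ps1 and Rpl24, with a mean signal of only 9.33, at −1.17 beside Gm35876. Rpsa-ps10 at 2.15, Gm3496 at 1.37 and Gm9493 at −1.73 stand apart on the pseudogene axis.

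A pseudogene can also share its transcript with the gene in which it lies. Of the 141, 41 lay in an intron of a gene on the same strand, 1 on an exon of one (Rpl19-ps11), 23 over a gene on the other strand only, and 76 overlapped none. The intronic 41 had lower identity to their parents (median 94.78%) than the other 100 (98.98%) and more windows of their own (medians 93.8% and 46.0%). Their median log2 fold change was −0.10, and that of the other 100 was −0.19. None of these differences was tested. For 40 of the 41 the host gene had a row, and in 32 of these its signal was above that of the pseudogene, up to Zbtb20 at 12638.83 around Gm15711 and Gm15712.

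Of the 35 host genes tested, 2 passed the adjusted p, beside 4.52% of all tested genes, so the count of hosts lies near the background. Both were higher in Sirt6mKO. They were Ppfibp1, which encodes a liprin, at 1177, 1450 and 1436 against 756, 747 and 740 (log2 fold change 0.85, adjusted p = 0.0012), and Lpar1, a receptor for lysophosphatidic acid, at 323, 260 and 321 against 193, 175 and 138 (0.84, adjusted p = 0.0069). The pseudogenes in their introns were both among the 6 that were higher in every Sirt6mKO library. Gm35876, in Ppfibp1, had 25, 25 and 33 against 9, 10 and 23 (1.04 ± 0.36 SE, adjusted p = 0.13), and Gm12577, in Lpar1, had 58, 63 and 52 against 47, 18 and 34 (0.88 ± 0.30, adjusted p = 0.12). The coding genes they match by sequence are Rpl24, with a log2 fold change of −1.17 (adjusted p = 0.14) at a mean signal of only 9.33, and Rsrc2. Another of the 6, Gm17971, lies in Coq10b, and both were little changed, at 0.35 and 0.34 with adjusted p of 0.52 and 0.29. Over the 37 pairs with a tested host the signs of pseudogene and host were the same in 22. In other cases the host was nearly silent, as for Gm6493, with a mean of 97.50 inside Kng2 with 1.17.

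The remaining pseudogene higher in every Sirt6mKO library was Gm19334, on chromosome 13 from 49750465 to 49752616, with 31, 27 and 32 against 20, 12 and 14 (0.95 ± 0.28 SE, adjusted p = 0.083). Its control mean of 15.33 lay under the minimum of 20, so it entered the set through Sirt6mKO.

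Rps2-ps13, the processed pseudogene with the largest fold change in the table, lies on the X chromosome (52898588 to 52899469) and is therefore not among the 141. It is given as a description. It reached 233, 202 and 17 in the Sirt6mKO libraries, in the order of their numbers, while every control was at 0. Against a floor of 3 reads in each control library, the Sirt6mKO mean of 150.67 was at least 40.15-fold higher. That mean was carried by replicates 1 and 2, and the bound does not hold for replicate 3 alone. Rps2-ps13 differed from Rps2 at 7 of 882 bases, and 135 of its 808 windows of 75 bases were its own. Rps2, of the small ribosomal subunit, had 819, 653 and 1308 in Sirt6mKO against 1129, 1506 and 1741 in the controls, and was lowest in the 2 libraries in which the copy was highest. Like Rpsa-ps10, Gm8730 and Rps3a3 it differed by more than 3 times between libraries of the same genotype.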

How the data were processed

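Per the labels and methods, reads of freshly sorted MuSCs (3 Sirt6mKO, 3 control libraries) were trimmed, aligned with STAR to GRCm38 (mm10) and counted per gene with featureCounts, and the study describes reads that align to several regions as excluded. The submitters' processing notes name STAR 2.7.10a, featureCounts 2.0.2 and DESeq2 1.30.1, the methods older versions. Whether counting used strand is not given in the sources used here. The authors deposited a signal, that is whole reads scaled by library and then rounded. The factors (0.558 to 1.372) and totals of 1267947 to 3211528 reads were recovered from the values that do not occur.

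Genes with a mean of at least 5 (14227) were tested with limma 3.58.1 (trend) on log2(signal + 1), with Benjamini-Hochberg adjustment over all of them, after a check on simulated data. Fold changes are on that scale and understate those of low genes. Calls need an adjusted p of at most 0.05 and 2-fold. Single shares and pseudogene to parent ratios were compared by exact permutation. Coding matches came from blastn 2.17.0 (E-value at most 1e-10) and windows from GENCODE vM21 transcripts, genes over the same bases aside. Alternatives were the pseudocount, the filter, the scaling, a replicate block, robust moderation, each library left out, and voom on recovered reads. Named were the pseudogenes with a parent symbol, the 10 most abundant, those past the adjusted p, the 5 largest changes each way without overlap, those next to the minimum and same-strand hosts. The members and lists were chosen with earlier results of these data known.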

Additional observations from a re-analysis of the deposited data

How the results depend on the processing

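The 2 pseudogenes called higher and none lower became 2 and 1 with voom on recovered reads, 1 and 1 with a pseudocount of 5, 1 and 0 without the filter on low values, and 0 and 0 with a minimum mean of 50, where neither Gm3496 nor Gm47994 was tested. Past the adjusted p alone there were 2 in the main fit, 3 with voom, a pseudocount of 5 or robust moderation, 1 without the filter and 0 with the minimum of 50. Upper quartile and median-ratio scaling and a pseudocount of 0.1 left the counts at 2 and 0. The sample titles number the replicates without saying whether same-numbered libraries are paired. The deviations of same-numbered libraries correlated at 0.023, 0.066 and 0.188, which cannot settle whether they are. With the replicate number as a block, 2 were higher, 1 lower and 7 past the adjusted p. With 1 library left out, 0 to 3 pseudogenes were called higher, 0 to 2 lower and 1 to 5 past the adjusted p, the median log2 fold change of the members was −0.22 to −0.04, and the share of all signal differed by −0.035 to 0.013 percentage points (−0.016 with all, −0.040 over all processed pseudogenes outside the regions left out). The median was −0.24 with the minimum of 50 and 0.05, the other sign, without Sirt6mKO replicate 2 and control replicate 3. Rps2-ps13 kept its direction throughout, with a log2 fold change of 7.40 and an adjusted p of 0.15 under voom, 4.36 and 9.86 under pseudocounts of 5 and 0.1, and 5.92 to 7.77 with 1 library left out, against 6.57. A minimum mean of 10 would give 284 members and of 50 would give 37. The cause of these changes was not tested. With 1 read worth 0.729 to 1.792 units and means mostly under 50, counting error limits the precision of single pseudogenes.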
